A study of Mus musculus with 4 samples.

Results

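This report concerns 10 C-type lectin receptor genes of mouse dendritic cells (DCs): Cd209a, Cd209b, Cd209c, Cd209d and Cd209e of the CD209 (DC-SIGN) family, the mannose receptor gene Mrc1, the galactose-type lectin genes Mgl2 and Clec10a, and the related genes Ly75 and Clec12a. They were chosen by name, as the probe sets that carry only that gene's symbol on the array, and all 10 were found among 19938 measured genes, each with 1 probe set. Bone marrow of C57BL/6 mice was cultured for 8 days with 200 ng/ml Flt3 ligand, a growth factor that drives DC development. The groups were miR-142-/- (ko) CD8-equivalent DCs, ko CD4-equivalent DCs, miR-142+/+ (wt) CD8-equivalent DCs and wt CD4-equivalent DCs, with 1 Affymetrix array each. Both subsets were sorted as B220- CD11c+ cells, the CD8-equivalent ones by CD24 with no CD172 and low CD11b, and the CD4-equivalent ones by CD172 and CD11b with low CD24. Neither the age of the mice nor the number pooled for each array is stated in the sources used here. With 1 array a group there is no replicate error, and precision is limited by how few arrays there are.

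C-type lectin receptors are surface proteins of macrophages and DCs that bind sugars on microbes and on the body's own glycoproteins and carry them into the cell. The human DC-SIGN gene has a family of counterparts in mice that lie close together in the genome. Mrc1 encodes CD206, which takes up mannosylated proteins, and Mgl2 and Clec10a encode CD301b and CD301a, which bind galactose-type sugars. Ly75 encodes DEC-205, an uptake receptor known from CD8+ DCs of mouse lymphoid organs, and Clec12a encodes an inhibitory receptor for uric acid crystals and dead cells. CD4-equivalent DCs stand for the cDC2 lineage and CD8-equivalent DCs for the cDC1 lineage.

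The deleted gene encodes a microRNA hairpin with 2 mature strands, shown because their loss is what separates the genotypes. RefSeq places them on chromosome 11 of GRCm38.p6, on the plus strand, at chr11:87756867-87756887 and chr11:87756903-87756925. Capitals mark the seed, bases 2 to 8, which differs between the strands.
mmu-miR-142a-5p: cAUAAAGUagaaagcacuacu
mmu-miR-142a-3p: uGUAGUGUuuccuacuuuaugga

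Of the 10 genes, 9 matched a RefSeq promoter window. The sequences upstream of Cd209a, Cd209d, Cd209e and Mrc1 are printed because the 3 Cd209 paralogs, which lie side by side, behaved differently on these arrays, and Mrc1 had the largest fitted subset difference of the 10 genes. They run 5′ to 3′ on the gene's strand and end just before the gene's annotated span on GRCm38.p6, at chr8:3748985-3749234 (minus strand, Cd209a), chr8:3878549-3878749 (minus, Cd209d), chr8:3854287-3854536 (minus, Cd209e) and chr2:14229164-14229413 (plus, Mrc1). Capitals mark matches on either strand to 7 motifs of myeloid transcription factors: the PU.1 core GAGGAA, the ETS-IRF composite (GGAA, then NN, then GAAA), the IRF pair (GAAA, then NN, then GAAA), the STAT6 motif (TTC, then NNNN, then GAA), the RUNX core TGTGGT, the C/EBP motif TTGCNNAA and the AP-1 motif TGANTCA.
Cd209a: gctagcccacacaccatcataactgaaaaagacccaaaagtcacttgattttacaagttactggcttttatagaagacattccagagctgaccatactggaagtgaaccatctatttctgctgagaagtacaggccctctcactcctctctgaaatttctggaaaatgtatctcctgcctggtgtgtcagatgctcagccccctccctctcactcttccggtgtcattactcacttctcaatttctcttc
Cd209d: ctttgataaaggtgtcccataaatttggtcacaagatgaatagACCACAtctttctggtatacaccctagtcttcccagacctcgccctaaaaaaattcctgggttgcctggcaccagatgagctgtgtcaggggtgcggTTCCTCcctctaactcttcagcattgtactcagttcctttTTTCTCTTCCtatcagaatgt
Cd209e: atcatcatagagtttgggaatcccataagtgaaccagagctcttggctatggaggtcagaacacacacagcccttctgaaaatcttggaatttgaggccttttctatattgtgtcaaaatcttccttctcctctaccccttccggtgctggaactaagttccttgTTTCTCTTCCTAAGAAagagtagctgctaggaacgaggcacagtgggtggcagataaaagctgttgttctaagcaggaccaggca
Mrc1: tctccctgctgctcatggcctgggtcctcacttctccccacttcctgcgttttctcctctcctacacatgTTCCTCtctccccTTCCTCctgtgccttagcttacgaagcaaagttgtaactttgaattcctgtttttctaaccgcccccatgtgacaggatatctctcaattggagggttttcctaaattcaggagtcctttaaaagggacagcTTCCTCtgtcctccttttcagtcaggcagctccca
The PU.1 core occurred 3 times upstream of Mrc1 and also in the windows of Cd209d, Mgl2 and Clec12a, so 4 of 9 member windows held it against 23.3% of 32817 mouse windows of 250 bases. The ETS-IRF composite stood in Cd209d and Cd209e, 2 of 9 windows, against 2.3% of all windows. In Cd209e it overlaps a STAT6 match. Both matches to the composite lie in a run of 12 bases that the windows of Cd209d and Cd209e share, so they are not independent. No motif of the 7 occurred in Cd209a or Cd209c, which says only that these letters are not in these windows, and the Cd209c window starts inside the gene's annotated span. The windows of Mgl2, Clec12a and Cd209d end inside the spans of their own genes, by 232, 461 and 49 bases. That of Clec12a, with 250 bases, therefore lies wholly inside its gene. The PU.1 matches counted for Mgl2 and Clec12a thus lie within the annotated genes and not upstream of them. A match is a description of the sequence and not a measured binding site.

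The values are RMA log2 expression summaries, and a difference of 1 is 2-fold. A gene was compared between 2 arrays when the higher of its values reached a floor of 5.68, which is the median value over probe sets with 1 gene symbol. Between 9774 and 9821 genes reached it on an array. Below the floor RMA compresses differences, so a difference from a value under it can understate the ratio. Levels of different probe sets are not comparable, and the Cd209 genes are paralogs that could share probe sequence, so their separation on the array is uncertain. Mir142 read 4.79 and 4.92 in ko DCs against 9.87 and 10.37 in wt DCs, in CD8- and CD4-equivalent cells each time. The sort markers Sirpa and Itgam were lower and Cd24a higher in CD8- than in CD4-equivalent DCs of both genotypes. For Cd24a the difference was 0.73 in ko, under 2-fold, and 1.78 in wt. It read 11.98 in ko against 10.98 in wt CD4-equivalent DCs. In sorted bulk cells, fewer cells of a type and less RNA per cell cannot be told apart.

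Of the 10 genes, 3 reached the floor on all 4 arrays (Cd209a, Clec10a and Clec12a), 1 on 3 arrays (Mgl2), 3 on the CD4-equivalent arrays alone (Cd209c, Cd209d and Mrc1) and 3 on no array (Cd209b, Cd209e and Ly75). Cd209b read 4.34 to 4.55 and Cd209e 4.90 to 5.12. Cd209b encodes SIGN-R1, a receptor for polysaccharides known from marginal zone macrophages of the spleen. Neither gene was distinguishable from the low end of the array. Ly75 read 5.64 in ko CD8-equivalent and 5.21 in ko CD4-equivalent DCs, and 5.32 in wt CD8-equivalent and 4.85 in wt CD4-equivalent DCs. Its value was the higher one in CD8-equivalent cells of each genotype, but all 4 lay under the floor and no difference is drawn from them.

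**Figure D1:**
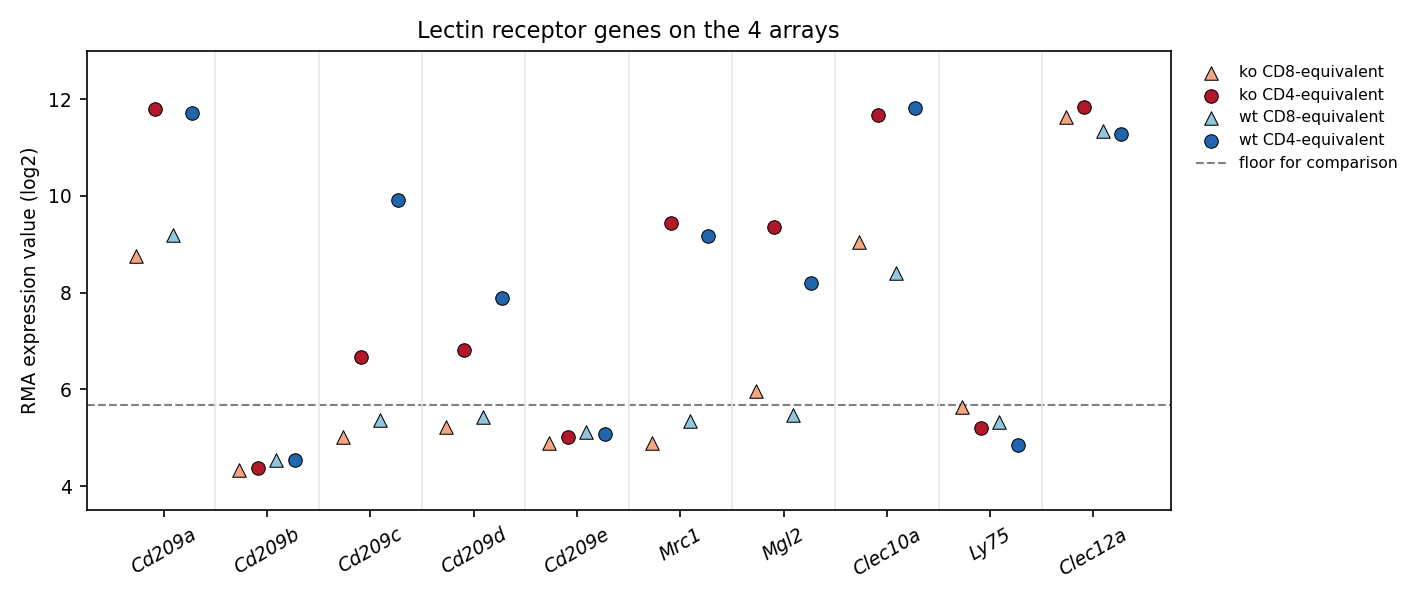
RMA log2 values of the 10 lectin receptor genes, 1 point per array, with the floor of 5.68 as a dashed line. Cd209a, Cd209c, Cd209d, Mrc1, Mgl2 and Clec10a stand higher on the CD4-equivalent arrays (circles) than on the CD8-equivalent arrays (triangles), and Cd209c and Cd209d differ between ko and wt CD4-equivalent DCs.

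The first comparison was between the subsets. Among the lectin receptors, 6 were lower in CD8- than in CD4-equivalent DCs in both genotypes, and Clec12a was at a similar value in all groups. In ko DCs 6 of 7 compared members were at least 2-fold lower, against 3.90% of all 10118 genes compared, and 0 were at least 2-fold higher, against 3.39%. In wt DCs the counts were again 6 and 0 of 7, against 3.14% and 2.10% of 9998 genes. Mrc1, Cd209c and Cd209d in both genotypes, and Mgl2 in wt, reached the floor only in CD4-equivalent DCs, so once compared they had to be lower in CD8-equivalent DCs, and these counts are a description. Cd209a and Clec10a in both genotypes, and Mgl2 in ko, were measured above the floor in both subsets. With limma's additive model, in which genotypes stand in for replicates, 6 of 7 members passed in this direction after Benjamini-Hochberg adjustment over 10239 genes, against 6.35% of all genes, and 0 in the other direction, against 7.98%. The same limit holds for that count. Among 10 cDC1 markers, 3 of 9 compared passed 2-fold upwards in CD8-equivalent DCs of ko and 1, Cadm1, was lower (-1.71), while 7 of 10 passed upwards in wt.

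Mrc1, the mannose receptor, read 4.90 in ko CD8-equivalent and 9.43 in ko CD4-equivalent DCs, and 5.34 in wt CD8-equivalent and 9.17 in wt CD4-equivalent DCs. Both CD8-equivalent arrays were under the floor, and the CD4-equivalent values stood 3.75 and 3.49 above it in ko and wt. Limma called it lower in CD8-equivalent DCs (adjusted p = 0.0023), but the fitted difference of -4.18 ± 0.19 (SE) uses values under the floor at that end, and only the distance above the floor is measured.

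Cd209a, the member of the family often named mouse DC-SIGN, read 8.76 in ko CD8-equivalent and 11.80 in ko CD4-equivalent DCs, and 9.20 in wt CD8-equivalent and 11.71 in wt CD4-equivalent DCs. It was well above the floor in all groups, so its differences of -3.04 in ko and -2.52 in wt rest on measured values at each end (limma -2.78 ± 0.16 (SE), adjusted p = 0.0033). Cd209a was 8.21-fold lower in CD8-equivalent DCs of ko and 5.72-fold lower in those of wt.

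The galactose-type lectins had the same direction. Mgl2 read 5.97 in ko CD8-equivalent and 9.35 in ko CD4-equivalent DCs, and 5.47 in wt CD8-equivalent and 8.21 in wt CD4-equivalent DCs (limma -3.06 ± 0.18 (SE), adjusted p = 0.0034). Clec10a, its neighbour on chromosome 11, read 9.04 in ko CD8-equivalent and 11.67 in ko CD4-equivalent DCs, and 8.41 in wt CD8-equivalent and 11.81 in wt CD4-equivalent DCs (limma -3.02 ± 0.21 (SE), adjusted p = 0.0047). The subset difference of Mgl2 was -3.37 in ko and -2.74 in wt, while that of Clec10a was -2.63 in ko and -3.41 in wt. The genes thus lay in opposite order in the genotypes, which was not tested. In wt, Mgl2 was under the floor in CD8-equivalent DCs and stood 2.53 above it in CD4-equivalent DCs. Its wt difference and its limma estimate are thus not measured at that end, and the order is uncertain. Asgr1 and Asgr2, the asialoglycoprotein receptor genes next to them in RefSeq order, read 4.53 to 5.41 and were under the floor throughout.

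Cd209c and Cd209d encode SIGNR2 and SIGNR3. Cd209c read 5.01 in ko CD8-equivalent and 6.67 in ko CD4-equivalent DCs, and 5.36 in wt CD8-equivalent and 9.92 in wt CD4-equivalent DCs. Its subset difference was -1.66 in ko and -4.56 in wt. Cd209d read 5.22 in ko CD8-equivalent and 6.82 in ko CD4-equivalent DCs, and 5.44 in wt CD8-equivalent and 7.90 in wt CD4-equivalent DCs, a difference of -1.60 and -2.46. All their CD8-equivalent values were under the floor, so the sizes of these differences are not measured at that end. In CD4-equivalent DCs Cd209c stood 0.99 above the floor in ko and 4.24 in wt, and Cd209d 1.14 in ko and 2.22 in wt. Limma called both (Cd209c -3.11 ± 0.66 (SE), adjusted p = 0.042, and Cd209d -2.03 ± 0.22 (SE), adjusted p = 0.012). The call of Cd209c was lost without the floor (adjusted p = 0.11) and with a trended and robust prior (adjusted p = 0.25), and over its 5 alternatives the adjusted p ran from 0.033 to 0.25.

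Clec12a, the inhibitory receptor, read 11.63 in ko CD8-equivalent and 11.83 in ko CD4-equivalent DCs, and 11.35 in wt CD8-equivalent and 11.27 in wt CD4-equivalent DCs. It was the compared member that limma did not call for subset (-0.06 ± 0.13 (SE), adjusted p = 0.79), and the 4 values span 0.56.

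**Figure D2:**
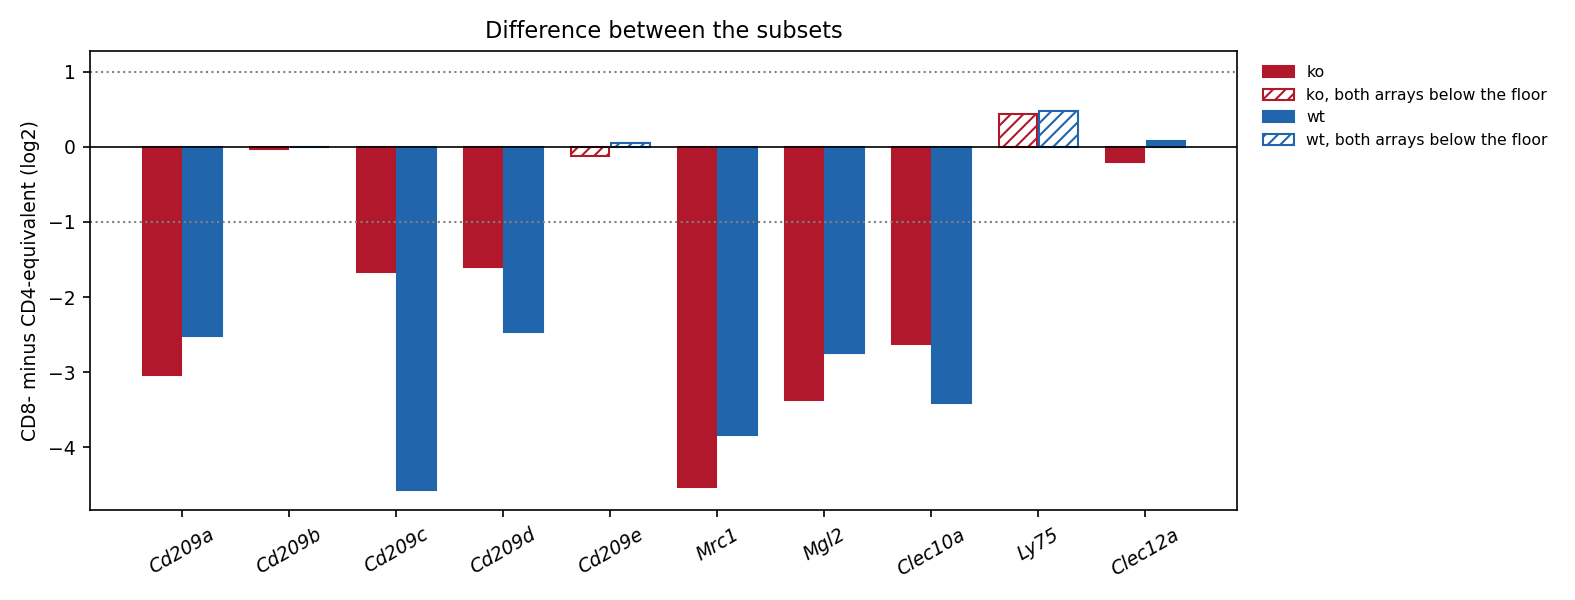
Log2 difference between CD8- and CD4-equivalent DCs for each gene in ko (red) and wt (blue), with dotted lines at 2-fold and hatched bars where both arrays lie below the floor. Solid bars of Cd209a, Cd209c, Cd209d, Mrc1, Mgl2 and Clec10a run from -1.60 to -4.56, and those of Clec12a lie at -0.20 and 0.08.

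The second comparison, which the study was set up for, was ko against wt within each subset. In CD4-equivalent DCs Cd209c and Cd209d were lower in ko, Mgl2 was higher, and Cd209a, Mrc1, Clec10a and Clec12a were under 2-fold. Thus 2 of 7 compared members were at least 2-fold lower, against 0.952% of 9978 genes, and 1 was at least 2-fold higher, against 1.39%. The median was 0.09 over the compared members and -0.08 over all compared genes. In CD8-equivalent DCs only Cd209a, Mgl2, Clec10a and Clec12a could be compared, and 0 of the 4 passed 2-fold in either direction, against 1.14% of 9972 genes higher and 1% lower. Their median was 0.39, where all compared genes had 0. Mgl2 was compared there only through its ko array and so had to be higher in ko.

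Cd209c had the largest difference. It read 6.67 in ko CD4-equivalent DCs against 9.92 in wt CD4-equivalent DCs, which is 9.53-fold lower in ko (-3.25) and the third lowest of the 9978 genes compared. The ko value lay 0.99 above the floor. In CD8-equivalent DCs it was under the floor on both arrays, at 5.01 in ko and 5.36 in wt, so a loss there could not have been seen. Cd209d read 6.82 in ko CD4-equivalent DCs against 7.90 in wt CD4-equivalent DCs, 2.11-fold lower in ko (-1.08). Its value passed 2-fold narrowly, and 78 compared genes had a lower difference. For scale, the central 95% of all compared genes ran from -0.69 to 0.77 in CD4-equivalent DCs.

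The CD4-equivalent arrays gave a different picture for the other members of the same receptor classes. Cd209a read 11.80 in ko CD4-equivalent DCs against 11.71 in wt CD4-equivalent DCs. Mrc1 differed by 0.26 and Clec10a by -0.14 in these cells, and both lay inside the central 95% of all genes. Mgl2 read 9.35 in ko against 8.21 in wt CD4-equivalent DCs, 1.13 higher. Its paralog Clec10a, at 11.67 in ko and 11.81 in wt, did not share that difference. In CD8-equivalent DCs Mgl2 read 5.97 in ko against 5.47 in wt, of which the wt value lay under the floor. Once compared there, it had to be higher in ko.

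Clec10a in CD8-equivalent DCs read 9.04 in ko against 8.41 in wt, 0.64 higher and inside the central 95% of all genes (-0.67 to 0.75). Cd209a there read 8.76 in ko against 9.20 in wt, 0.43 lower in ko. Clec12a was higher in ko by 0.28 in CD8-equivalent and 0.56 in CD4-equivalent DCs, the same direction in both and under 2-fold in both.

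**Figure D3:**
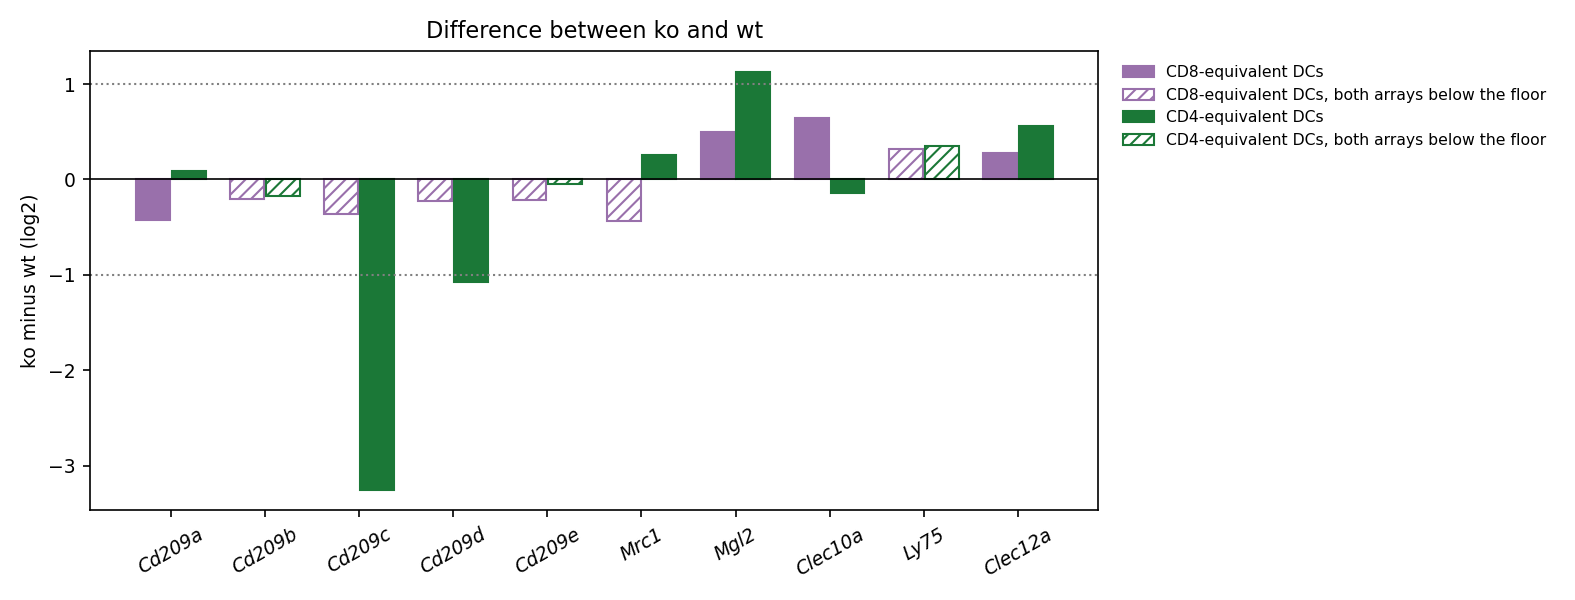
Log2 difference between ko and wt for each gene in CD8-equivalent (purple) and CD4-equivalent (green) DCs, with dotted lines at 2-fold and hatched bars where both arrays lie below the floor. Cd209c (-3.25), Cd209d (-1.08) and Mgl2 (1.13) pass 2-fold in CD4-equivalent DCs, and no gene does in CD8-equivalent DCs.

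A genotype effect common to both subsets was tested with limma, with the subsets standing in for replicates. It called 0 of 7 tested members after Benjamini-Hochberg adjustment over 10239 genes, where 0.107% of all genes were called higher and 0.0586% lower in ko. At an unadjusted p under 0.05 there were 4 members, Cd209c, Cd209d, Mgl2 and Clec12a, against 15.6% of all genes. Mgl2 came nearest, with 0.82 ± 0.18 (SE) and an adjusted p of 0.15, and its adjusted p ran from 0.083 to 0.26 over 5 alternatives. Its value was higher in ko in both subsets. In CD8-equivalent DCs that direction is uncertain, since the wt value lay under the floor and the ko value 0.29 above it. Clec12a had 0.42 ± 0.13 (SE) and an adjusted p of 0.25 (0.074 to 0.30 over the alternatives). Cd209c had -1.80 ± 0.66 (SE, adjusted p = 0.30) and Cd209d -0.65 ± 0.22 (SE, adjusted p = 0.28). With a trended and robust prior limma also called 0 members. Cd209c, Cd209d and Mrc1 were under the floor on both CD8-equivalent arrays. For such genes a difference confined to CD4-equivalent DCs also enlarges the residual of the additive model. The test could thus hardly call them, and the missing calls say little about CD4-equivalent DCs.

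For Cd209c the genotype difference in CD8-equivalent minus that in CD4-equivalent DCs was 2.90, and 1 of 10239 genes had a higher value. For Cd209d it was 0.85, with 155 genes higher. The central 95% of all genes ran from -0.70 to 0.74. The design leaves no degree of freedom to test these values, and with both CD8-equivalent values under the floor they restate the CD4-equivalent difference.

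**Figure D4:**
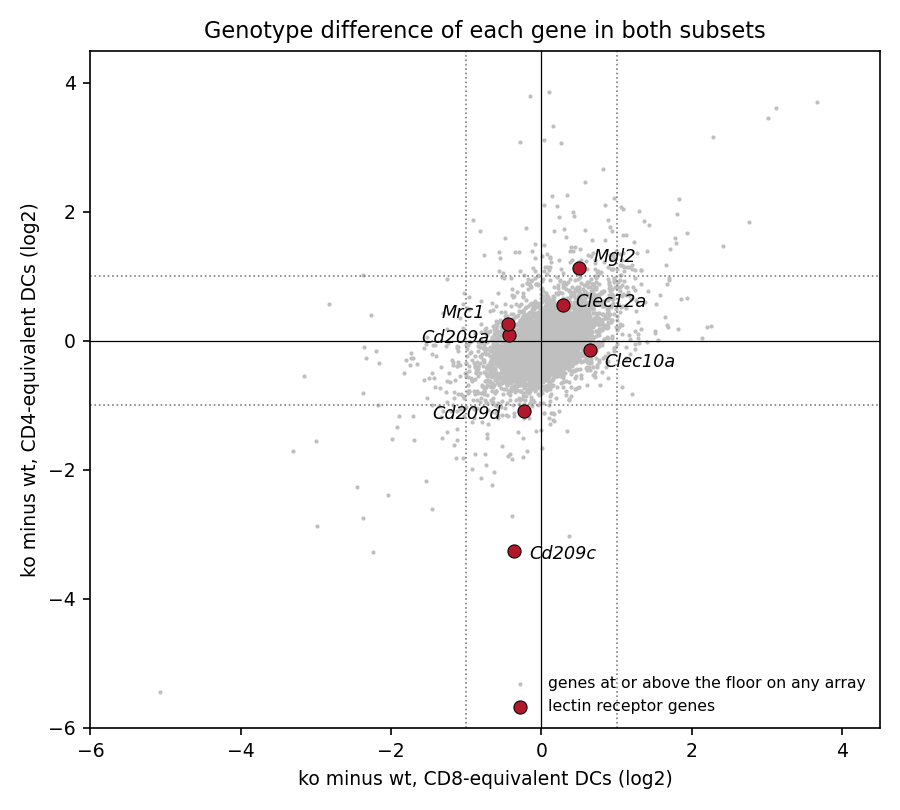
Log2 difference between ko and wt in CD8-equivalent DCs (x axis) against that in CD4-equivalent DCs (y axis) for 10239 genes at or above the floor on at least 1 array (grey), with 7 lectin receptor genes in red and dotted lines at 2-fold. Cd209c lies far below the cloud at -3.25 on the y axis and near the middle on the x axis, while Mrc1, Cd209a, Clec10a and Clec12a lie inside or at the edge of the cloud.

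Markers of other cells also differed between the CD4-equivalent arrays. Of 14 neutrophil markers, 12 reached the floor in ko and 4 in wt, with a summed linear signal of 4300 in ko against 1090 in wt, and 9 of 12 compared markers passed 2-fold upwards in ko, against 1.39% of all genes. Most of the 12, such as Ltf (6.31 in ko against 4.56 in wt), could be compared only through the ko array and so had to be higher in ko. Of the 4 at the floor on both arrays, S100a8 (3.08) and Lcn2 (3.80) were higher in ko. The others, Mmp8 (-0.69) and Csf3r (-0.74), were lower in ko and under 2-fold. The 7 plasmacytoid DC markers summed to 6740 in ko against 3150 in wt, and 7 and 5 of them reached the floor. Of these 7, 3 were at least 2-fold higher in ko, against 1.39% of all genes, and 0 lower, against 0.952%. The 10 cDC1 markers summed to 20000 in ko against 12400 in wt, with 9 at the floor on each. Clec9a, a cDC1 receptor for dead cells, was among the higher ones (10.85 in ko against 7.78 in wt). The 10 cDC2 markers, a list that holds Mgl2 and Cd209a, summed to 15700 in ko against 16700 in wt. Of the 9 compared, 3 were at least 2-fold lower in ko (Clec4a4 by -1.80, Ltb by -1.19 and Clec4a2 by -1.09), against 0.952% of all genes. Ltb reached the floor only in wt and so had to be lower. The 1 that was at least 2-fold higher, against 1.39%, was Mgl2 itself. The 13 monocyte and macrophage markers summed to 28700 in ko against 29800 in wt. Of the 11 compared, 1 was at least 2-fold lower in ko, Adgre1 (-1.55), and 1 was higher, C1qb (1.03). Over all genes 0.952% were lower and 1.39% higher. The part of these differences in the lower Cd209c and Cd209d was not tested. In CD8-equivalent DCs the monocyte and macrophage markers summed to 11800 in ko against 18100 in wt, and 7 and 11 of the 13 reached the floor. B cell markers (881 in ko against 1050 in wt CD4-equivalent DCs), T and NK cell markers (151 against 145) and Langerhans cell markers (62.9 against 71.5) had at most 1 gene at the floor on these arrays, and Cd207, the Langerhans cell lectin, was under it on all 4 arrays.

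The Cd209 genes of chromosome 8 stand in the RefSeq order Fcer2a, Clec4g, Cd209a, Cd209e, Cd209d, Cd209b, Cd209c, Cd209f and Cd209g among protein-coding genes. The neighbours were added after their values were seen. Of these 9 genes, 5 reached the floor on some array, and 3 of them were at least 2-fold lower in ko CD4-equivalent DCs, against 0.952% of all genes. Besides Cd209c and Cd209d this was Clec4g, a lectin known from liver and lymph node endothelium, which read 5.70 in ko against 6.78 in wt (-1.08). The ko value of Clec4g lay just above the floor of 5.68. Its other probe set read 4.81 in ko and 4.65 in wt, under the floor, and so gives no second measurement. Fcer2a, which encodes the low-affinity IgE receptor CD23, another C-type lectin, read 5.61 in ko against 6.20 in wt. Between Clec4g and Cd209d lie Cd209a (0.09) and Cd209e, which was under the floor. Between Cd209d and Cd209c lies only Cd209b, also under the floor on the 4 arrays, so it could not be compared. Cd209f and Cd209g read 4.19 to 4.84 on the 4 arrays.

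**Figure D5:**
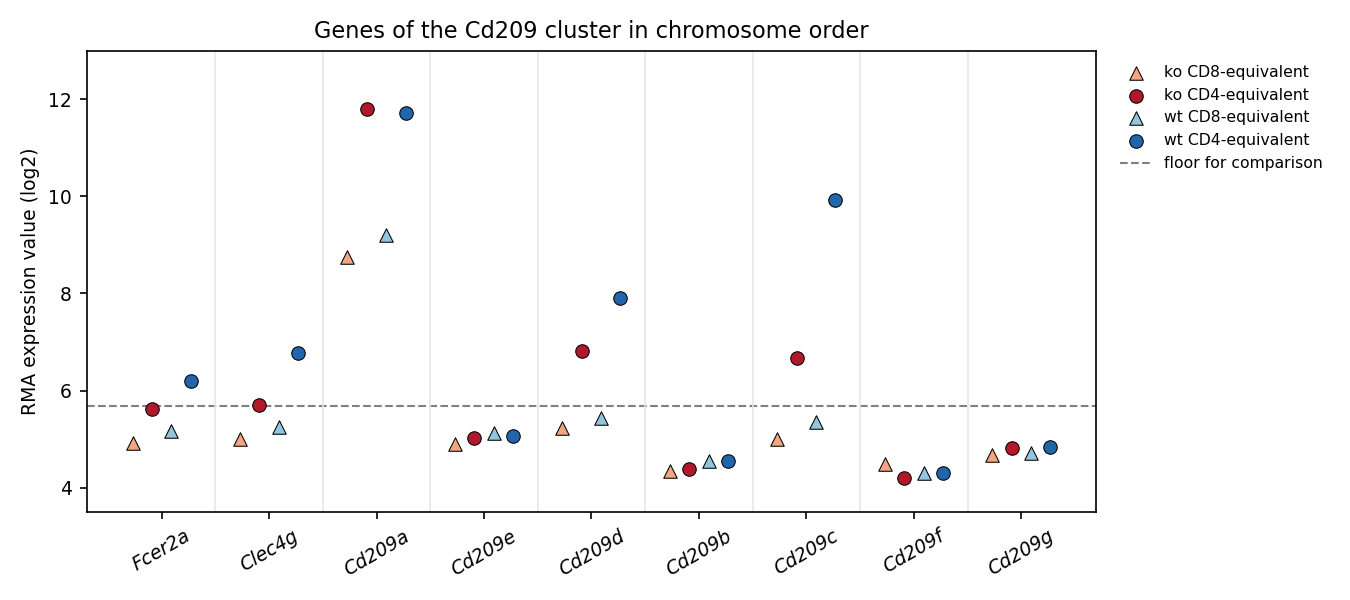
RMA log2 values of 9 protein-coding genes in their RefSeq order along chromosome 8, 1 point per array, with the floor of 5.68 as a dashed line. The ko CD4-equivalent point (dark red) lies below the wt CD4-equivalent point (dark blue) for Fcer2a, Clec4g, Cd209d and Cd209c but not for Cd209a, and Cd209e, Cd209b, Cd209f and Cd209g stay under the floor.

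Ly75 and Clec12a also lie among other lectin genes. Cd302, the neighbour of Ly75 on chromosome 2, encodes an endocytic lectin and read 6.83 in ko against 7.95 in wt CD4-equivalent DCs (-1.12). In CD8-equivalent DCs it read 6.10 in ko against 6.06 in wt. Near Clec12a on chromosome 6 lie Clec9a and Clec7a, which encodes the beta-glucan receptor Dectin-1. Clec7a read 10.05 in ko against 8.18 in wt CD4-equivalent DCs, 1.87 higher, and 6.24 in ko against 7.15 in wt CD8-equivalent DCs. Of the 9 genes from Clec2d to Clec7a, 5 reached the floor. The 2 that passed 2-fold upwards in ko CD4-equivalent DCs, against 1.39% of all genes, were Clec9a and Clec7a.

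Among 29 other C-type lectin receptors of myeloid cells, lower values in ko were more frequent than higher ones in both subsets. In CD8-equivalent DCs 5 of 16 compared genes were at least 2-fold lower, against 1% of all genes, and 1 was higher, against 1.14%. Their median was -0.28, and that of all genes 0. These were Clec4a1 (-2.37), Clec4a3 (-1.71), Clec4a2 (-1.20), Klrb1b (-1.07) and Clec4d (-1.01), against Clec2i (1.38). Clec4a3 and Clec4d reached the floor there only in wt, so once compared they had to be lower in ko, and the counts are a description. In CD4-equivalent DCs 6 of 20 were lower, against 0.952% of all genes, and 2 were higher, against 1.39%. Their median was -0.26, and that of all genes -0.08. Besides Clec4g and Cd302 the lower ones were the inhibitory lectin Clec4a4 (-1.80), Clec4n, which encodes the mannan receptor Dectin-2 (-1.66), Clec4b1 (-1.41) and Clec4a2 (-1.09), and the higher ones were Clec9a (3.07) and Clec7a. Limma called 0 of the 20 tested for genotype. For subset it called 12 lower, against 6.35% of all genes, and 1 higher in CD8-equivalent DCs, against 7.98%. The higher one was Cd69 (1.57 ± 0.18 (SE), adjusted p = 0.013). Of the 12 lower ones, Clec4e, Clec4n, Clec4g and Clec5a reached the floor only in CD4-equivalent DCs, so their direction was fixed by the floor.

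Genes of the signalling and uptake machinery behind the receptors were also listed. Of 13 compared genes of lectin receptor signalling, among them the kinase gene Syk, the adaptor gene Card9 and the phosphatase gene Ptpn6, 0 reached 2-fold in any of the 4 comparisons. Their medians were -0.01 in CD8-equivalent and -0.07 in CD4-equivalent DCs for ko minus wt. Limma called 1 of the 13 for subset, Syk (-0.69 ± 0.12 (SE), adjusted p = 0.028), and 0 for genotype. Of 19 endocytosis genes, such as the clathrin heavy chain gene Cltc and the early endosome gene Eea1, 1 passed 2-fold between genotypes. About 1% of all genes did so in each direction of each genotype comparison, so little can be read from these counts. The gene was the clathrin adaptor gene Dab2 in CD8-equivalent DCs, at 7.66 in ko against 9.20 in wt, by its brighter probe set, while its other probe set stayed under the floor. Limma called Dab2 as the 1 endocytosis gene that differed by subset (-2.69 ± 0.36 (SE), adjusted p = 0.016).

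Genes of the interleukin-4 and STAT6 axis, which is known to raise Mrc1 and Mgl2 in macrophages, were listed beside them. Of the 10 compared in CD4-equivalent DCs, 1 was at least 2-fold higher in ko, against 1.39% of all genes, and 0 lower, against 0.952%. Of the 8 compared in CD8-equivalent DCs 0 passed in either direction, against 1.14% of all genes higher and 1% lower. The higher gene was the chitinase-like gene Chil3, at 5.75 in ko against 4.47 in wt CD4-equivalent DCs. Its wt value lay under the floor, so once compared it had to be higher in ko. Stat6 read 10.64 in ko against 10.68 in wt CD4-equivalent DCs, and the receptor gene Il4ra 10.77 against 11.03. Limma called 6 of the 10 tested as lower in CD8-equivalent DCs, against 6.35% of all genes, and 0 for genotype. They were the chemokine gene Ccl22 (-3.13), the cDC2 transcription factor gene Irf4 (-2.70), the lipid receptor gene Pparg (-1.81), Il13ra1 (-1.52), Egr2 (-1.30) and Stat6 (-0.56). Ccl22 was under the floor on both CD8-equivalent arrays (4.67 in ko and 5.15 in wt), so its direction was fixed by the floor.

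The genes whose pattern over the 4 arrays was nearest to each varying member were found among 10238 others, by the root mean square difference of log2 values after centring each gene. Cd209d was nearest to Ifit1, an interferon-induced gene (0.07), to Mfsd7a (0.10) and to Stat4 (0.11). Cd209c had no close match, with Gm9733 at 0.50, the chaperone gene Rtp4 at 0.57 and Ms4a4a at 0.61. Cd209a was nearest to the Fc receptor gene Fcgr1 and the chemokine gene Ccl6 (0.15 each) and Klra17 (0.16). Mgl2 was nearest to Lrp1 (0.15), F11r (0.18) and the fibronectin gene Fn1 (0.23), and Clec10a to Apol7c (0.11), Ifit3 (0.26) and Fscn1 (0.30). For Mrc1 the nearest were Ccl5 (0.33), Hacd4 (0.35) and Oasl2 (0.39). Between members the smallest distance was 0.41, for Cd209a with Clec10a, while Cd209c and Cd209d lay 0.94 apart and Cd209c and Mgl2 1.58. With 4 arrays and so many genes searched, close matches arise readily, and the distances are a description.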

How the data were processed

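Total RNA of 4 sorted DC samples was hybridised to Affymetrix arrays. The deposited values are log2 summaries per probe set, made with RMA and Partek per the submitters' processing notes. The sources used here give no versions, and the log base was inferred from the values (3.52 to 14.3). No scanner values were used here, so scale and centring could not be checked.

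Of 35399 probe sets, 21789 carried 1 gene symbol, 1621 several and 11989 were unnamed here, and 21698 of the single ones matched RefSeq (GRCm38.p6) by gene ID. The probe set with the highest mean stood for a gene. Pairwise differences of single arrays carry no test. Limma 3.58.1 in R 4.3.3 (additive model of subset and genotype, eBayes, two-sided, Benjamini-Hochberg, threshold 0.05) has 1 residual and 3.98 prior degrees of freedom. The residual one is the interaction of genotype and subset, and the prior is a variance pooled over all genes. Its SEs and p-values thus measure no spread between replicates. The script was tested on simulated data. The genes and lists were chosen with earlier results of these data known. Named were the 10 genes, list genes past 2-fold or called by limma (up to 6 a list), the 3 nearest genes by pattern, and label checks. Neighbours were added later. Alternatives were cyclic loess, other floors, averaged probe sets and another limma prior.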

Additional observations from a re-analysis of the deposited data

Results flagged for a closer look

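Some genes had differences of opposite sign under the same contrast, each sign resting on a single pair of arrays, and the difference between the pairs was not tested. Between ko and wt, Cd209a differed by -0.43 in CD8-equivalent and 0.09 in CD4-equivalent DCs, and Clec10a by 0.64 and -0.14. Outside the 10 genes, the Dectin-1 gene Clec7a differed by -0.91 and 1.87, and Cd302 by 0.04 and -1.12. Between CD8- and CD4-equivalent DCs, Clec12a differed by -0.20 in ko and 0.08 in wt, and Klrb1b by -0.11 in ko and 0.15 in wt. Of these values, those of Clec7a and Cd302 in CD4-equivalent DCs pass 2-fold.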

How the results depend on the processing

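The counts of lectin receptors past 2-fold stayed within 1.5 times the main value in all 4 pairwise comparisons under cyclic loess, no floor, a floor 1 log2 unit higher and averaged probe sets. The Cd209c difference in CD4-equivalent DCs ran from -3.25 to -3.15, that of Cd209d from -1.08 to -1.01 and that of Mgl2 from 1.13 to 1.25. These ranges come from cyclic loess alone. No lectin receptor had several probe sets, so averaging could not change its values. A floor decides only which genes are compared and cannot change a difference. Limma's genotype calls over all genes, 11 higher and 6 lower, became 1 and 2 without the floor, 72 and 48 with the higher floor, and 178 and 129 with the trended and robust prior, while 0 lectin receptors were called under each setting run. For Cd209c, Cd209d and Mrc1, under the floor in CD8-equivalent DCs, the additive model could hardly have made a call. Subset calls higher in CD8-equivalent DCs numbered 501 without the floor, against 817 with it. The subset call of Cd209c alone among the members was lost, without the floor and with the other prior, and the cause was not tested. For CD8- minus CD4-equivalent DCs in ko, the median of all genes was 0.01 after cyclic loess against 0.11 as deposited, and 34.6% against 46.5% of the genes past 2-fold were higher. No paired analysis was possible because the groups share no more than 1 replicate number, and the additive limma model, which takes out subset when it tests genotype and genotype when it tests subset, is the nearest fit to one. No scanner values were used here, so signal over background is unknown and genes near the floor, Cd209c in ko among them, have the least certain ratios.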
